A study of Mus musculus with 9 samples.

Results

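The genes described here are 10 components of interleukin-6 (IL-6) family cytokine and STAT3 signalling in mouse gastrocnemius muscle: the ligands Il6 and Lif, the receptor subunits Il6ra, Il6st, Osmr and Lifr, the kinases Jak1 and Jak2, the transcription factor Stat3 and its feedback inhibitor Socs3. They were listed by name for their place in the pathway, with earlier results of these data known. They are 10 of the 55487 genes in the count table. Of these 10 genes, 8 passed the filter on low counts and could be tested, among 14851 tested genes in all. Il6 and Lif did not pass and are given as counts.

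RNA from the gastrocnemius, a calf muscle, was sequenced from male wild-type C57BL/6 mice (C57BL/6J in the study's text) after enrichment of polyadenylated RNA. The 4 Control libraries came from mice with normal cage activity, the 2 Unloading libraries from mice whose hindlimbs had been lifted off the cage floor for 10 days, and the 3 Reloading libraries from mice taken 1 day after such mice had been put back in normal cages. No genetic change or drug was given to any group, and the mice's age is not given in the sources used here. The labels do not say whether each library is a separate animal, so p-values measure the spread between these libraries, which may in part be technical.

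Cytokines of the IL-6 family bind a receptor subunit of their own and then recruit gp130, the shared signalling subunit encoded by Il6st. The kinases bound to gp130, JAK1 and JAK2 among them, phosphorylate STAT3, which enters the nucleus and switches on target genes. Socs3 is one of those genes, and its protein blocks gp130 and the kinases, so that its transcript is often read as a sign of recent STAT3 activity. In skeletal muscle the pathway is known from contraction, injury and wasting, and it acts in muscle fibres, satellite cells, fibroblasts and immune cells alike.

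Promoter sequences were taken from RefSeq for all 10 genes, as windows of 250 bases before and 50 after the start on build GRCm38.p6. Dimers of STAT3 bind motifs of the form TTCNNNGAA, which reads the same on both strands, and each window was searched for it. Socs3 was the only 1 of the 10 genes whose window held a match (TTCTTAGAA, in capitals below), against 9.55% of the 27025 genes with such a window. The match starts at position -154 relative to the RefSeq start, which counts as 0. The stretch shown is the part of the Socs3 window outside annotated exons, chr11:117969452-117969616 on the minus strand, which is intronic to the longest Ensembl transcripts of the gene. The Stat3 stretch, chr11:100939541-100939790 on the minus strand, ends right before the start of the gene and holds no match. Both are shown because Socs3 and Stat3 had the largest rises on reloading among the 8 tested genes, as given below.
Socs3: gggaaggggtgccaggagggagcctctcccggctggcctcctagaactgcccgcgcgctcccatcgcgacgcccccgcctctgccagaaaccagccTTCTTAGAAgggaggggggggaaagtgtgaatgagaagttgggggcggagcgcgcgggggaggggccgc
Stat3: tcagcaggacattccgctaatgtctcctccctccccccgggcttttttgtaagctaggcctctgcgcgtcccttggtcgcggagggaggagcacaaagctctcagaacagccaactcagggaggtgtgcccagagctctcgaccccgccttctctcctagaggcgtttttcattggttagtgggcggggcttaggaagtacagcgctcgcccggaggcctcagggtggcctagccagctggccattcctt
A match to these letters is a description of the sequence and does not show binding.

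The libraries held between 9252443 and 19612101 counted read pairs. Values are counts per 1000000 read pairs (CPM) after TMM scaling (trimmed mean of M-values), whose factors were 0.928 to 0.96 in the Control and Unloading libraries and 1.11 to 1.13 in the Reloading libraries, and 1 count was worth 0.0546 to 0.113 CPM. Markers of skeletal muscle were abundant in every library, and transcripts of the Y chromosome (2003 to 3919 counts over 4 genes) and of Xist (0 to 5 counts) went with the labelled sex, although the study's methods name female mice for the unloading procedure. Control 2 and Reloading 1 stood apart by skin transcripts: the summed level of 6 keratinocyte markers was 290.8 and 132.0 CPM in them and 2.31 to 4.2 CPM in the other 7 libraries. Several counts and values are therefore also given without these libraries.

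Between Reloading and Unloading, 6 of the 8 tested genes changed, 3 up (Stat3, Socs3 and Osmr) and 3 down (Il6ra, Lifr and Jak2). The share of all tested genes that changed in that comparison was 37.5%, with 18.5% higher and 19% lower. Between Unloading and Control, 2 of the 8 rose (Il6ra and Il6st) and the other 6 did not pass the test, where 9.9% of all tested genes did (4.4% higher and 5.5% lower). Between Reloading and Control, 6 of the 8 changed, 4 up (Socs3, Stat3, Osmr and Il6st) and 2 down (Lifr and Jak2), against 43.5% of all tested genes (22.1% higher and 21.3% lower). The median log2 fold change over the 8 genes was 0.14, 0.00 and 0.30 in these comparisons, and 0.03, 0.00 and 0.01 over all tested genes. All calls are from edgeR's quasi-likelihood test at a Benjamini-Hochberg adjusted p under 0.05. The comparisons share groups with each other, so their values are set side by side and are not independent. Without Control 2 and Reloading 1, the counts of changed genes were 6, 3 and 6, the addition being Socs3 between Unloading and Control.

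**Figure D1:**
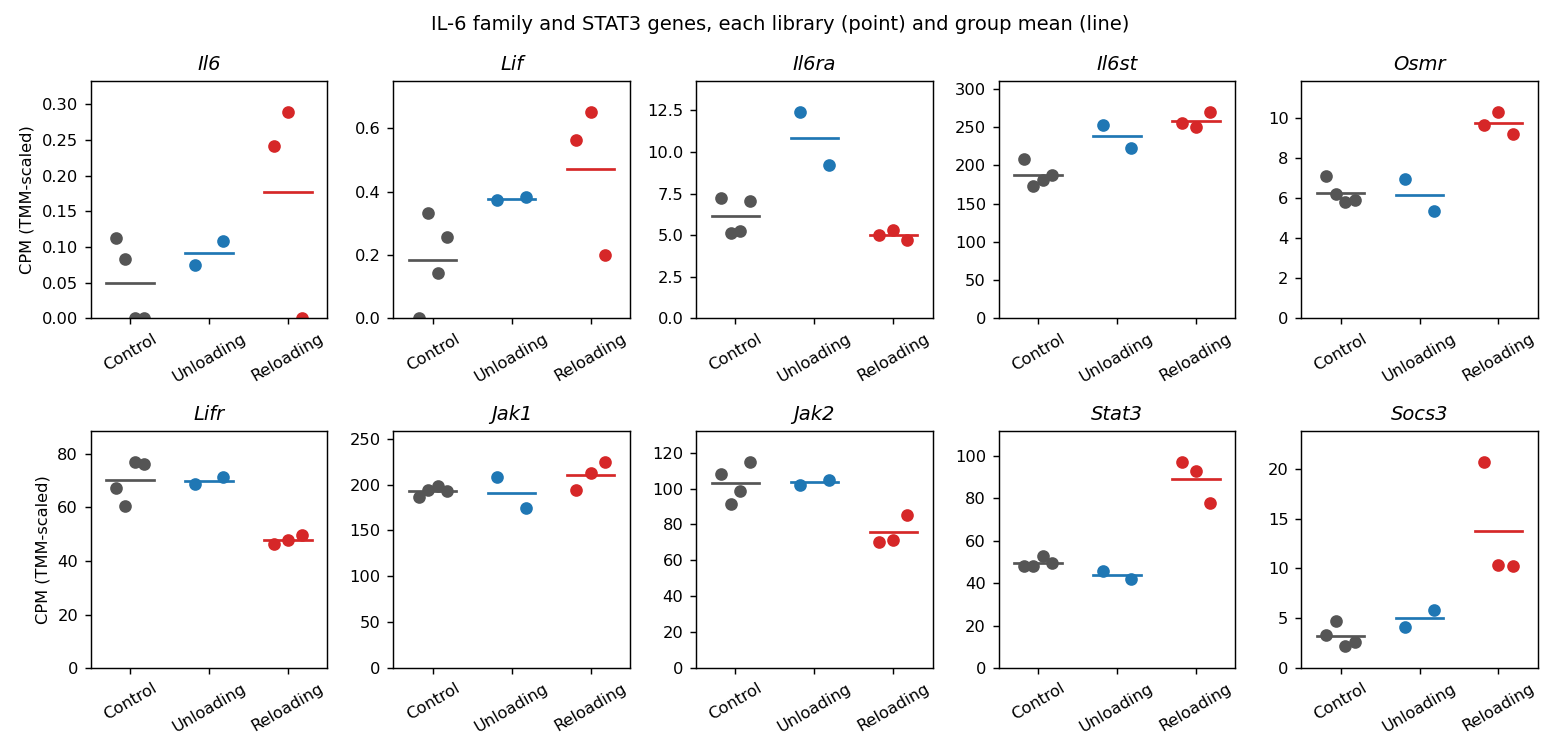
CPM (TMM-scaled, linear axes from 0) of each of the 10 genes in every library, with points for the 4 Control, 2 Unloading and 3 Reloading libraries and a line at each group's mean. The 3 Reloading libraries lay above all others for Stat3, Socs3 and Osmr and below all others for Lifr and Jak2, and the 2 Unloading libraries lay above all others for Il6ra.

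Among the ligands, IL-6 is the cytokine that gives the family its name and is released by contracting muscle and by immune cells, and LIF (leukaemia inhibitory factor) acts on muscle precursor cells. Il6 had 1, 1, 0 and 0 counts in the Control libraries, 1 and 2 in the Unloading libraries and 3, 4 and 0 in the Reloading libraries. Its group totals of 2, 3 and 7 counts compare with the 3 counts that an observation of 0 allows, which equal 0.0609 CPM over the Control, 0.089 CPM over the Unloading and 0.081 CPM over the Reloading group. Only the Reloading total exceeded that limit, and 1 of the 3 Reloading libraries had none. Lif had 0, 4, 2 and 3 counts in the Control libraries, 5 and 7 in the Unloading libraries and 7, 9 and 3 in the Reloading libraries. Both Unloading libraries and 2 of the 3 Reloading libraries were above the Control range in counts. In a fit without the filter, neither ligand passed edgeR's quasi-likelihood test, with Benjamini-Hochberg adjusted p of 0.362 for Il6 and 0.174 for Lif between Reloading and Control. That Lif difference was 1.24 ± 0.61 on the log2 scale, with an unadjusted p of 0.0415 in edgeR. The limits on counts cover counting error only.

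The receptor subunits moved in different directions. Il6ra encodes the subunit that binds IL-6 itself. Il6ra measured 7.22, 5.14, 5.22 and 7.04 CPM in the Control libraries, 12.4 and 9.23 CPM in the Unloading libraries and 5.0, 5.28 and 4.70 CPM in the Reloading libraries. Both Unloading libraries were above every other library, and the Control and Reloading ranges overlapped. Il6ra rose with unloading by a log2 fold change of 0.82 ± 0.17 (SE, 1.76-fold, edgeR's quasi-likelihood test, Benjamini-Hochberg adjusted p = 0.0069). After 1 day of reloading it was 2.15-fold lower than in Unloading, or -1.11 ± 0.18 on the log2 scale (adjusted p = 0.000211, edgeR). Against Control the Reloading level differed by -0.29 ± 0.17 (adjusted p = 0.177, edgeR), with a 95% interval from -0.64 to 0.07. Without Unloading 1 the rise was 0.60 and the call was not kept, in a fit with 1 Unloading library. The call was kept in 17 of 18 alternative settings, among them the fit without Unloading 2. Exons of Il6ra share 242 bases (2.8%) with a gene model named Gm42809, and the counting did not use strand, so a small part of its reads could not be assigned.

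Il6st, which encodes gp130, showed another course. Il6st measured 208, 173, 181 and 187 CPM in the Control libraries, 253 and 223 CPM in the Unloading libraries and 255, 250.1 and 269.7 CPM in the Reloading libraries. All 5 libraries of unloaded or reloaded muscle were above the Control range, and the Unloading and Reloading ranges overlapped. Il6st rose with unloading by 0.35 ± 0.08 on the log2 scale (1.27-fold, adjusted p = 0.017, edgeR), and without Unloading 1 this was 0.26 with an adjusted p of 0.265. Reloading exceeded Control by 0.46 ± 0.07 (1.38-fold, adjusted p = 0.000124, edgeR). Between Reloading and Unloading the difference was 0.12 ± 0.09 (adjusted p = 0.312, edgeR), with an interval from -0.07 to 0.30. This last value depended on the scaling: with library totals in place of TMM it was 0.36 with an adjusted p of 0.00455, where the median over all tested genes was itself 0.27.

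Osmr encodes the receptor subunit for oncostatin M, a family cytokine made mainly by immune cells. Osmr measured 7.10, 6.22, 5.79 and 5.92 CPM in the Control libraries, 6.96 and 5.35 CPM in the Unloading libraries and 9.67, 10.3 and 9.21 CPM in the Reloading libraries. The Reloading libraries were above all 6 others, and Control and Unloading overlapped. Osmr rose on reloading by 0.67 ± 0.15 against Unloading (1.59-fold, adjusted p = 0.00257, edgeR) and by 0.64 ± 0.13 against Control (1.56-fold, adjusted p = 0.000776, edgeR). Without Unloading 2 the first of these was 0.47 with an adjusted p of 0.0611. Unloading differed from Control by -0.03, with an interval from -0.34 to 0.29 (adjusted p = 0.932, edgeR).

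Lifr encodes the subunit that binds LIF and also serves ciliary neurotrophic factor and cardiotrophin. Lifr measured 67.3, 60.4, 77.1 and 76.4 CPM in the Control libraries, 68.6 and 71.5 CPM in the Unloading libraries and 46.3, 48.0 and 49.6 CPM in the Reloading libraries. Every Reloading library was below all 6 others. Lifr fell on reloading to 0.684 of the Unloading level, a log2 fold change of -0.55 ± 0.10 (adjusted p = 0.000533, edgeR), and by the same log2 amount against Control (-0.55 ± 0.08, adjusted p = 9.46e-05, edgeR). Both falls kept their calls in all 18 alternative settings, but their size varied. It lay between -0.68 and -0.3 against Unloading and between -0.63 and -0.31 against Control. Unloading and Control differed by -0.01, with an interval from -0.20 to 0.19 (adjusted p = 0.979, edgeR).

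The balance of gp130 against its partners was read as the ratio of levels per length (CPM per 1000 bases of exon) within each library. Il6st over Il6ra was 20.7 to 27.0 in the Control libraries, 15.9 to 18.8 in the Unloading libraries and 36.9 to 44.7 in the Reloading libraries, with no overlap between any groups. Il6st over Lifr was 2.28 to 3.00 in Control, 3.03 to 3.58 in Unloading and 5.06 to 5.35 in Reloading, again without overlap. Il6st over Osmr was 30.4 to 34.5 in Control, 39.7 to 45.5 in Unloading and 26.6 to 32.0 in Reloading, so that Control and Reloading overlapped. These ratios use the same counts as the changes above and add no separate evidence.

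**Figure D2:**
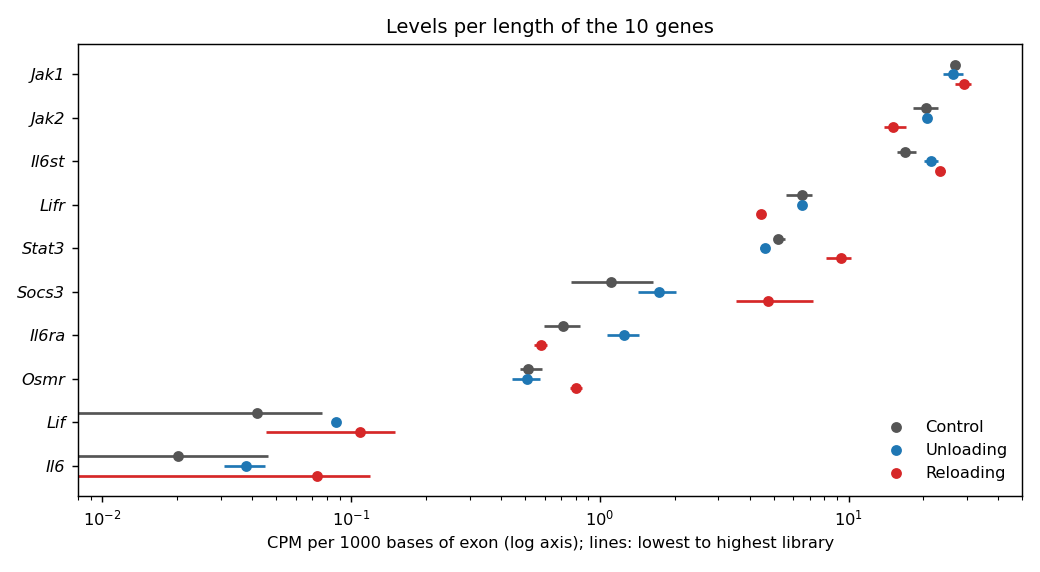
Level per length (CPM per 1000 bases of exon, log axis) of the 10 genes in Control, Unloading and Reloading, with points at group means and lines from the lowest to the highest library. Lines that reach the left edge include libraries with 0 counts, and Stat3 and Socs3 in Reloading lay to the right of the other groups while Lifr and Jak2 lay to the left.

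In order of level per length, the Control libraries held Jak1 at 26.7 ± 0.61 (SD, n = 4), Jak2 at 20.5 ± 2.10, Il6st at 16.9 ± 1.35, Lifr at 6.53 ± 0.74, Stat3 at 5.19 ± 0.23, Socs3 at 1.11 ± 0.38, Il6ra at 0.712 ± 0.131, Osmr at 0.517 ± 0.049, Lif at 0.0421 and Il6 at 0.0201 CPM per 1000 bases. The neighbours Jak2 and Il6st, Socs3 and Il6ra, and Lif and Il6 overlapped in range. In the Reloading libraries Stat3 (9.35 ± 1.07, n = 3) stood above Lifr (4.45 ± 0.16), the reverse of the order in Control and Unloading. Socs3 in Reloading (4.75 ± 2.09) overlapped with Lifr, and Osmr (0.802 ± 0.044) stood above Il6ra (0.578 ± 0.033).

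The kinases differed from each other. Jak1 measured 187, 194, 198 and 193 CPM in the Control libraries, 208 and 174 CPM in the Unloading libraries and 194, 213 and 225 CPM in the Reloading libraries, and its groups overlapped. No comparison of Jak1 passed the test: the log2 fold change was 0.15 ± 0.09 for Reloading against Unloading (interval -0.04 to 0.33, adjusted p = 0.207, edgeR), -0.02 for Unloading against Control (adjusted p = 0.92) and 0.13 ± 0.07 for Reloading against Control (adjusted p = 0.172). With library totals as the scaling, the reloading values of Jak1 were 0.39 (adjusted p = 0.00261) against Unloading and 0.37 (adjusted p = 0.000763) against Control.

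Jak2 measured 108, 91.2, 98.6 and 115 CPM in the Control libraries, 102 and 105 CPM in the Unloading libraries and 70.0, 71.5 and 85.4 CPM in the Reloading libraries. The Reloading libraries were below all 6 others, the nearest being Control 2. Jak2 fell on reloading by 0.45 ± 0.10 on the log2 scale against Unloading (adjusted p = 0.00314, edgeR) and by 0.45 ± 0.09 against Control (adjusted p = 0.000855, edgeR). With library totals as the scaling these were -0.21 (adjusted p = 0.106) and -0.21 (adjusted p = 0.0531), so that neither call was kept. Unloading and Control differed by 0.01 (adjusted p = 0.977, edgeR), with an interval from -0.20 to 0.22.

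Stat3, the transcription factor on which these receptors converge, is itself a STAT3 target. Stat3 measured 47.8, 48.2, 52.7 and 49.2 CPM in the Control libraries, 45.7 and 42.0 CPM in the Unloading libraries and 97.1, 92.5 and 77.6 CPM in the Reloading libraries. The lowest Reloading library was above the highest of the other 6. Stat3 rose on reloading by 1.02 ± 0.10 against Unloading (2.03-fold, adjusted p = 2.58e-06, edgeR) and by 0.85 ± 0.08 against Control (1.80-fold, adjusted p = 1.08e-06, edgeR). Over 18 alternative settings the first of these values lay between 0.95 and 1.27 and passed the threshold in all 18. Both Unloading libraries were below the Control range, yet that difference did not pass the test (-0.18 ± 0.09, adjusted p = 0.249, edgeR). Stat3 exons share 215 bases (2.26%) with the neighbouring Stat5a.

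Socs3 measured 3.27, 4.73, 2.21 and 2.66 CPM in the Control libraries, 4.12 and 5.85 CPM in the Unloading libraries and 20.7, 10.3 and 10.2 CPM in the Reloading libraries. Every Reloading library was above all 6 others, with Reloading 1 well above the other two. Socs3 rose on reloading by 1.43 ± 0.31 against Unloading (2.69-fold, adjusted p = 0.00212, edgeR) and by 2.09 ± 0.28 against Control (4.26-fold, adjusted p = 2.46e-05, edgeR). The highest value in the Control group and the highest in the Reloading group came from Control 2 and Reloading 1, the libraries with skin transcripts. Without both, the rises were 1.02 (adjusted p = 0.00138) and 1.94 (adjusted p = 6.31e-06). Unloading against Control was 0.66 ± 0.34 (adjusted p = 0.234, edgeR), and without both libraries 0.92 with an adjusted p of 0.0208.

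**Figure D3:**
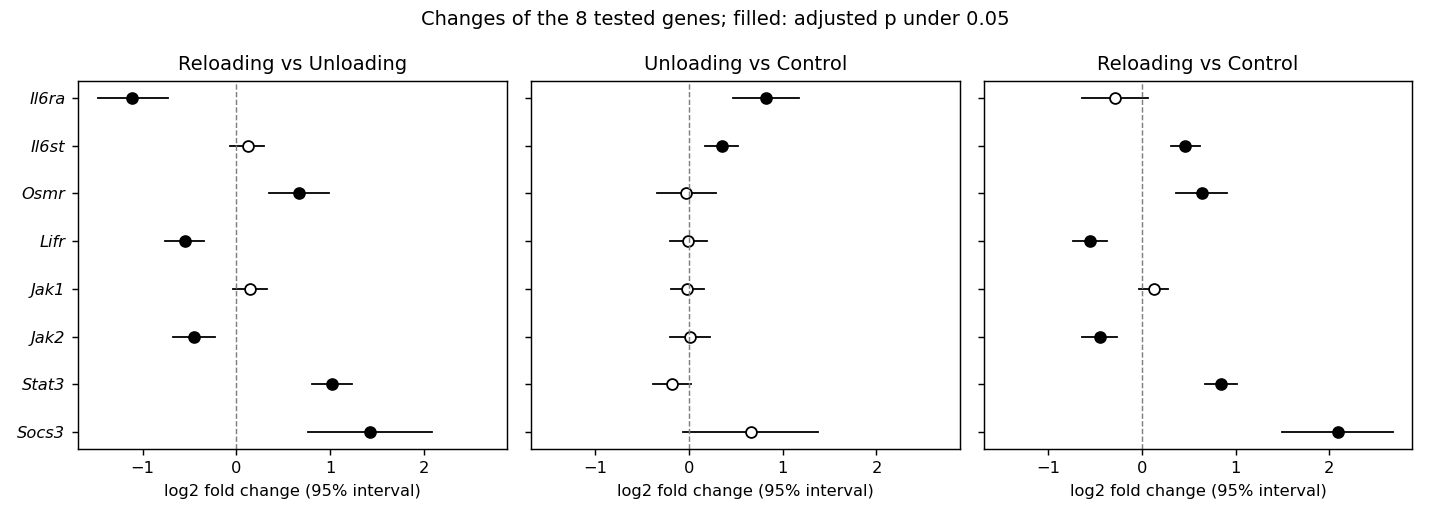
Log2 fold change of the 8 tested genes in the 3 comparisons, with 95% intervals from the edgeR fit and filled points where the adjusted p was under 0.05. Stat3 and Socs3 had the largest rises on reloading, Il6ra rose with unloading and fell on reloading, and the intervals of Jak1 included 0 throughout.

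Markers of cells other than muscle fibres also moved on reloading. Between Unloading and Reloading, 10 of 11 macrophage markers rose (summed level 77.5 to 78.3 CPM in Unloading and 163 to 185 CPM in Reloading), as did 5 of 6 endothelial markers (160 CPM in both Unloading libraries and 265 to 335 CPM in Reloading) and 4 of 4 tested smooth muscle markers (42.2 to 45.8 and 97.4 to 113 CPM). Among the macrophage markers Cd68 rose most, from a mean of 3.05 to 45.9 CPM (15.3-fold). The median log2 fold change of the 11 was 1.11. Of 7 fibroblast markers, 3 rose and 2 fell. Of 6 skeletal muscle markers 5 fell, and of 4 tested satellite cell markers Myod1 alone rose. Over all tested genes, 18.5% rose and 19% fell in that comparison. Neutrophil markers had a summed level of 1.26 to 1.5 CPM in Unloading and 1.74 to 6.09 CPM in Reloading. In the Control libraries this level was 0.357 to 6.88 CPM, a range that spans both other groups. None of the 3 tested neutrophil markers was called by edgeR or DESeq2 (0 at an unadjusted p under 0.05). Among those that did not pass the filter, Ly6g had 0 counts in both Unloading libraries and at most 1 in any Reloading library. Cxcr2, a neutrophil chemokine receptor, had 4 to 9 counts in the Reloading libraries (19 in all), 0 in both Unloading libraries and 1 over the Control libraries. Csf3r had 27 counts over the Reloading, 4 over the Unloading and 20 over the Control libraries. In the same order Retnlg had 6, 4 and 3 counts and Mmp8 had 6, 5 and 4. None of 5 T cell markers passed the filter. In whole muscle, more cells of a type and more RNA per cell cannot be told apart, and the part of these cell types in the changes of Stat3, Socs3, Osmr, Il6ra, Lifr and Jak2 was not tested.

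Of 59 further genes of the pathway, 49 passed the filter. Between Reloading and Unloading 27 of them changed (17 up and 10 down), between Unloading and Control 10 (8 up and 2 down), and between Reloading and Control 26 (20 up and 6 down). These counts, and those of the separate lists below, stand beside 37.5%, 9.9% and 43.5% of all tested genes in the same comparisons. The median log2 fold change of the 49 was 0.25, 0.06 and 0.24 in the same order. Without Control 2 and Reloading 1 the counts were 22, 10 and 18. Without Unloading 1 the count for Unloading against Control was 1. With library totals in place of TMM, 24 rose and 5 fell between Reloading and Unloading, and 31 rose and 3 fell between Reloading and Control.

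**Figure D4:**
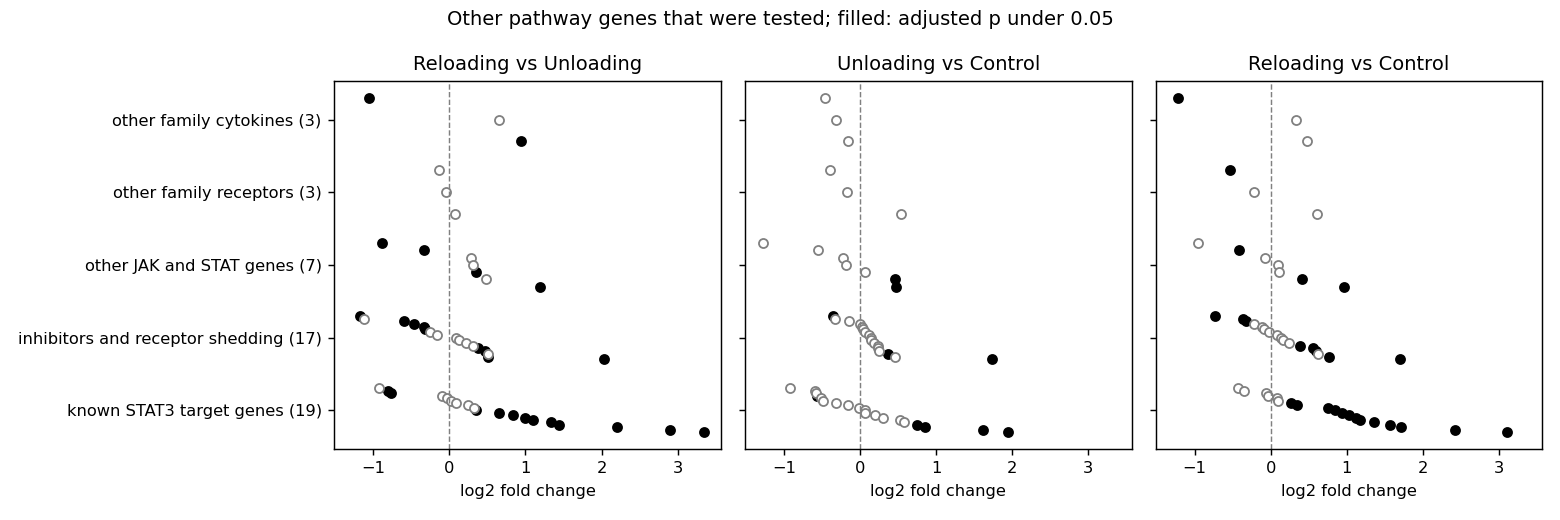
Log2 fold change of the 49 tested genes in 5 lists of other pathway genes (number tested in parentheses), 1 point a gene and filled where the edgeR adjusted p was under 0.05. Known STAT3 target genes spread furthest to the right in both comparisons with Reloading, and most genes were open in Unloading against Control.

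Among 8 other family cytokines and cofactors, Il11, Osm, Cntf, Ebi3 and Il27 did not pass the filter, and none of these had more than 7 counts in any library. Of the 3 that were tested, 2 changed between Reloading and Unloading, 1 up and 1 down (Ctf1). Ctf1 encodes cardiotrophin-1, which signals through LIFR and gp130. Ctf1 measured 6.88, 7.71, 7.43 and 6.86 CPM in Control, 6.14 and 6.78 CPM in Unloading and 3.87, 2.75 and 2.78 CPM in Reloading. It fell by 1.06 ± 0.17 on the log2 scale against Unloading (adjusted p = 0.000228, edgeR) and by 1.22 ± 0.15 against Control (adjusted p = 1.31e-05, edgeR), with no overlap between Reloading and the other libraries. Without Unloading 2, only Ctf1 of this list was called between Reloading and Unloading.

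Of 5 other receptor subunits, Il27ra and Il31ra did not pass the filter and 3 were tested. None of the 3 passed edgeR's quasi-likelihood test or DESeq2 between Reloading and Unloading (0 at an unadjusted p under 0.05) or between Unloading and Control (1 at an unadjusted p under 0.05). Cntfr, the subunit that binds ciliary neurotrophic factor, was lower in Reloading than in Control, at a mean of 11.1 against 16.1 CPM (log2 fold change -0.53 ± 0.12, adjusted p = 0.00231, edgeR). With a replicate block by the numbers in the descriptions, 3 of these receptors were called between Reloading and Control, 1 up and 2 down.

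Among 8 other JAK and STAT genes, Stat4 did not pass the filter. Of the 7 tested, Jak3 and Stat6 rose and Stat5a and Stat5b fell between Unloading and Reloading, with a list median of 0.31. Stat5b, which carries growth hormone signals in muscle, measured 275, 262, 291 and 287 CPM in the Control libraries, 392 and 379 CPM in the Unloading libraries and 212, 191 and 221 CPM in the Reloading libraries. Its 3 groups did not overlap. Stat5b rose with unloading by 0.47 ± 0.07 (adjusted p = 0.00224, edgeR) and fell on reloading by 0.89 ± 0.08 (adjusted p = 1.2e-06, edgeR), to below Control by 0.42 ± 0.07 (adjusted p = 0.000147, edgeR). Stat5a, its close paralogue, rose by 0.46 ± 0.11 with unloading (adjusted p = 0.02, edgeR) and fell by 0.34 ± 0.12 on reloading (adjusted p = 0.0325, edgeR), and without Unloading 2 the count of genes of this list called between Reloading and Unloading was 2. The fall of Stat5a kept its call in 13 of 18 alternative settings. It was -0.09 (adjusted p = 0.544, edgeR) with library totals, -0.31 (adjusted p = 0.0675) without Control 2 and Reloading 1, which left 3 genes of this list called, 2 up and 1 down, and -0.23 (adjusted p = 0.284) without Unloading 2. Its rise with unloading was 0.57 (adjusted p = 0.0795, edgeR) without Unloading 1 and 0.33 (adjusted p = 0.173) without Unloading 2. Jak3, a kinase of lymphoid cytokine receptors, rose on reloading from a mean of 4.64 to 10.6 CPM (log2 fold change 1.19 ± 0.17, adjusted p = 9.14e-05, edgeR). Stat6, the factor downstream of interleukin-4, rose from 25.5 to 32.5 CPM (0.35 ± 0.10, adjusted p = 0.012, edgeR), a call not kept without Unloading 1 or without Unloading 2 (0.34 in both, adjusted p = 0.0638 and 0.0724).

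All 17 inhibitors and receptor-shedding enzymes were tested. Between Reloading and Unloading 9 changed, 4 up and 5 down, with a median of 0.09, and without Unloading 1 this count was 5. Between these groups 37.5% of all tested genes changed with all libraries (18.5% higher and 19% lower). With library totals in place of TMM 11 of the 17 changed, 9 up and 2 down (Socs2 and Pias2). Without Control 2 and Reloading 1 the count was 7, 2 up and 5 down. Socs1, which like Socs3 inhibits JAK kinases, measured 0.677, 0.83, 1.00 and 0.601 CPM in Control, 0.449 and 0.765 CPM in Unloading and 4.84, 2.24 and 0.861 CPM in Reloading. Reloading 1 was the highest library of all, and Reloading 3 lay within the Control range. Socs1 was called higher by 2.03 ± 0.57 against Unloading (adjusted p = 0.0116, edgeR). Without Reloading 1 this was 1.27 (adjusted p = 0.0522, edgeR) and without Unloading 1 it was 1.74 (adjusted p = 0.0856), so that neither kept the call. Against Control the Socs1 difference without Reloading 1 was 0.95 (adjusted p = 0.0812, edgeR). Ptpn1, a phosphatase that acts on JAK kinases, rose by 0.47 ± 0.10 (adjusted p = 0.00148, edgeR). Adam17, a protease that sheds the IL-6 receptor from the cell surface, fell with unloading by 0.35 ± 0.10 (adjusted p = 0.0461, edgeR, a call kept in 4 of 18 alternative settings, with values from -0.42 to -0.27) and rose on reloading by 0.51 ± 0.11 (adjusted p = 0.00178, edgeR), from a mean of 15.8 to 22.5 CPM.

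Socs2, an inhibitor of growth hormone signalling, fell on reloading from a mean of 25.9 to 11.4 CPM (log2 fold change -1.18 ± 0.23, adjusted p = 0.0011, edgeR). Pias2 and Pias1, members of a family of STAT inhibitors and SUMO ligases, fell by 0.59 ± 0.12 (adjusted p = 0.00163, edgeR) and 0.46 ± 0.11 (adjusted p = 0.00422, edgeR), the second being -0.22 with an adjusted p of 0.133 with library totals. Between Unloading and Control 3 genes of this list changed, Cish and Pias1 up and Adam17 down, where 9.9% of all tested genes did. Cish, a target and inhibitor of STAT5, measured 16.2, 12.8, 14.5 and 6.86 CPM in Control, 33.8 and 49.6 CPM in Unloading and 31.1, 23.1 and 4.44 CPM in Reloading. It rose with unloading by 1.74 ± 0.43 (adjusted p = 0.02, edgeR), a call kept in 13 of 18 alternative settings, and the DESeq2 value was 1.73 with an adjusted p of 0.101. The Pias1 rise with unloading kept its call in 12 of 18. For Cish, the Reloading libraries ranged from below Control to near Unloading. Against Control, 8 of the 17 differed in Reloading, 5 up (Socs1, Ptpn6 and Ptpn1 by most) and 3 down (Socs2, Pias2 and Socs7). Over all tested genes 43.5% differed (22.1% higher and 21.3% lower). The Ptpn6 rise kept its call in 11 of 18 alternative settings, that of Socs1 in 16 and that of Ptpn1 in all 18. Of the 17, the count was 4 without Reloading 1 and also 4 (2 up and 2 down) without Control 2 and Reloading 1. With library totals 10 were higher and none of the 3 falls kept its call (adjusted p = 0.0684, 0.361 and 0.365 for Socs2, Pias2 and Socs7, edgeR).

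Of 21 known STAT3 target genes other than Socs3, 19 were tested, and Saa3 and Birc5 did not pass the filter. Between Reloading and Unloading 12 changed, 10 up and 2 down, with a median of 0.35, where 37.5% of all tested genes changed (18.5% higher). Between Reloading and Control 13 changed, all up, with a median of 0.84, where 43.5% of all tested genes did (22.1% higher). Without Control 2 and Reloading 1 the counts were 10 and 9. These genes also answer to other factors, and the list was written with earlier results of these data known. Ccnd1, which encodes cyclin D1, a driver of entry into the cell cycle, measured 2.82, 4.23, 3.43 and 2.49 CPM in Control, 1.35 and 2.02 CPM in Unloading and 21.8, 18.2 and 12.9 CPM in Reloading. Its rise on reloading was 3.34 ± 0.27 on the log2 scale against Unloading (adjusted p = 4.04e-07, edgeR) and 2.42 ± 0.20 against Control (adjusted p = 2.44e-07, edgeR).

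Timp1, an inhibitor of matrix metalloproteinases, measured 0.226, 1.16, 0.500 and 0.686 CPM in Control, 0.898 and 0.656 CPM in Unloading and 6.12, 6.07 and 5.10 CPM in Reloading. It rose by 2.90 ± 0.33 against Unloading (adjusted p = 1.21e-05, edgeR) and by 3.10 ± 0.28 against Control (adjusted p = 7.49e-07, edgeR), with no overlap of Reloading with the other libraries. Fos, an immediate-early transcription factor, rose by 2.20 ± 0.39 (adjusted p = 0.000524, edgeR), from a mean of 5.13 to 22.9 CPM. Pim1, a survival kinase, and Cebpd, an acute-phase transcription factor, were lower in Reloading than in Unloading. Pim1 rose with unloading by 0.75 ± 0.17 (adjusted p = 0.013, edgeR) and fell on reloading by 0.81 ± 0.18 (adjusted p = 0.00247, edgeR), to a level that differed from Control by -0.06 (adjusted p = 0.779, edgeR). The Pim1 rise kept its call in 16 of 18 alternative settings. It was 0.76 without Unloading 1 and 0.75 without Unloading 2, and neither of these fits kept the call. Cebpd fell by 0.77 ± 0.27 against Unloading (adjusted p = 0.0322, edgeR). This fall kept its call in 9 of 18 alternative settings, and without Unloading 1 it was -0.12. Against Control, Cebpd was higher in Reloading by 0.84 ± 0.25 (adjusted p = 0.0118, edgeR), a call kept in 15 of 18.

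Between Unloading and Control 5 of the 19 target genes changed, 4 up and 1 down, and without Unloading 1 none passed edgeR's test (5 at an unadjusted p under 0.05). Of all tested genes, 9.9% changed between Unloading and Control (4.4% higher and 5.5% lower). The largest rise among the target genes was that of Lcn2, which encodes the iron-binding protein lipocalin-2 (1.95 ± 0.38, adjusted p = 0.0058, edgeR). Its mean level was low, at 0.487 CPM in Control and 1.78 CPM in Unloading. Next were Cebpd (1.62 ± 0.26, adjusted p = 0.00234, edgeR) and Bcl2l1, which encodes the survival protein Bcl-xL (0.86 ± 0.14, adjusted p = 0.00257, edgeR). Cebpd measured 9.70, 16.4, 9.86 and 15.8 CPM in Control, 55.2 and 25.2 CPM in Unloading and 21, 20.5 and 28.3 CPM in Reloading. Unloading 1 was thus more than double Unloading 2, and Unloading 2 lay within the Reloading range. Vegfa, the main angiogenic growth factor, fell with unloading by 0.57 ± 0.10 (adjusted p = 0.00374, edgeR).

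The motif search was extended to these lists, for which RefSeq windows were found for 4 of the 8 cytokines, 4 of the 5 receptors, 7 of the 8 JAK and STAT genes, 10 of the 17 inhibitors and 18 of the 21 target genes. Windows with a match belonged to Il31ra, Cish, Icam1 and Irf1. That is 2 of 18 target genes (11.1%), close to the 9.55% of all genes. With matches in capitals, the following lines give 30 bases around the match for Socs3 (chr11:117969501-117969530, minus strand), Cish (chr9:107296649-107296678, plus strand), Icam1 (chr9:21015888-21015917, plus strand) and Irf1 (chr11:53769914-53769943, plus strand), chosen because these tested genes can be set beside their expression.
Socs3: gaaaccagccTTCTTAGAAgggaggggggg
Cish: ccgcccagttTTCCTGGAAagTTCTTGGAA
Icam1: ggcgcgaggtTTCCCGGAAagtggccccga
Irf1: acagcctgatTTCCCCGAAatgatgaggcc
Their expression did not move together. On reloading Socs3 and Icam1, an adhesion molecule for leukocytes, rose (Icam1 by 1.33 ± 0.29, adjusted p = 0.0022, edgeR), while Cish (-1.12 ± 0.45, adjusted p = 0.0609, edgeR) and Irf1, an interferon-response factor (0.09 ± 0.38, adjusted p = 0.876, edgeR), did not pass the test.

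For Socs3, Il6ra and Stat3, the 3 tested genes with the largest change between Reloading and Unloading, the genes with the most similar course over the 9 libraries were sought among 13153 genes with a mean of at least 1 CPM. The measure was the root mean square difference of log2 CPM after centring each gene. For Stat3 the nearest were Mapt (0.048), Cd63-ps (0.0829) and Dusp27 (0.087), whose mean levels in Control, Unloading and Reloading were 89.1, 80.7 and 162 CPM for Mapt and 106, 85.2 and 194 CPM for Dusp27. For Il6ra they were Tiparp (0.0931), Lmbr1 (0.0983) and Ube4a (0.11), with Tiparp at 20.3, 33.3 and 17.1 CPM in the same order. For Socs3 they were Ptprf (0.26), Prx (0.285) and Cdr2 (0.316), a looser likeness, with Prx at 2.87, 3.65 and 10.1 CPM. These likenesses describe 9 libraries of 3 groups, and the measure was read with no test.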

How the data were processed

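Per the labels and the study's methods, the authors aligned the reads to the mouse genome GRCm38.p6 (STAR 2.7.3a) and counted read pairs per gene without strand (featureCounts 2.0.3, Ensembl release 102). The methods describe single reads, while the labels and the count table give pairs. The deposited table holds raw counts and exon lengths. The authors' DESeq2 tables, with their fold changes, p-values and the mean normalized signal per gene as deposited, were used for gene symbols only.

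For the tests edgeR 4.0.16 was run in R 4.3.3 (TMM, filterByExpr with a minimum count of 10 and total of 15), with all 9 libraries in a single quasi-likelihood fit on group alone. P-values are two-sided and adjusted by Benjamini and Hochberg within a comparison, with a threshold of 0.05. Replicate numbers differ between titles and descriptions. Deviations from group means of same-numbered libraries correlated by -0.20 to 0.08 by titles. By descriptions all 3 Control and Reloading pairs were above 0.1 (0.36, 0.14 and 0.16). The first of these was Control 2 with Reloading 1, the libraries with skin transcripts. The other pairs were at 0.02 to 0.08. The main fit paired no libraries, and replicate blocks were used among the alternatives only. Alternatives included DESeq2 1.42.0, other scalings, no filter, replicate blocks and leaving out libraries. From each list besides the 10 genes, at most 3 called genes per direction and comparison with the largest change were named, with those that failed the filter. Icam1 and Irf1 were named for their motif after their values were seen. Some genes of these lists are not reported here. The genes and lists were chosen with earlier results of these data known.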

Additional observations from a re-analysis of the deposited data

Results flagged for a closer look

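In the Control group, 55 tested genes of the pathway were examined for a library far from the other 3, by the gap to its nearest neighbour over the range of the group. Chance alone flags about 1 in 20 groups, and 4 of the 55 genes were flagged. Control 3 stood out for Stat2, at 17.9 CPM where the other 3 had 6.55 to 7.38 CPM. The same library had 15 CPM of Irf1 against 4.89 to 5.72 CPM. Both are known as interferon-response genes. Control 4 was apart for Socs7, with 123 CPM against 102 to 105 CPM. Control 2 was apart for Il4ra, with 4.81 CPM against 3.60 to 3.72 CPM. None of the 8 tested genes of the main list was flagged.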

How the results depend on the processing

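Of 432 values of the 8 tested genes under 18 alternative settings, 404 kept their direction and their side of the threshold, 5 lost and 5 gained a call, and 18 changed sign. All 18 were differences between Unloading and Control that never passed the test: Osmr 0.01, Lifr 0.03 and Jak1 0.02 without the filter, Lifr 0.10 and Jak1 0.01 with either replicate block, Jak2 -0.0011 with library totals and -0.05 without Control 2 and Reloading 1, and, over fits that each left out 1 library, ranges of -0.21 to 0.16 for Osmr, -0.07 to 0.04 for Lifr, -0.15 to 0.11 for Jak1 and -0.05 to 0.06 for Jak2. Between Unloading and Control, leaving out 1 library gave 121 to 1518 called genes against 1470 (121 without Unloading 1 and 949 without Control 3), 0 to 2 called among the 8 (0 without Unloading 1, with 3 at an unadjusted p under 0.05 in edgeR), and 1 to 11 among the other pathway genes, for which no filter gave 16. The cause was not tested. Without the filter Socs3 in that comparison was 0.70 with an adjusted p of 0.00663. With library totals the median over all genes shifted to 0.27 for Reloading against Unloading and 0.25 against Control, and the calls became 5250 higher and 1090 lower (2743 and 2819 with TMM) and 6028 higher and 1484 lower (3287 and 3169). A replicate block by the numbers in the titles gave 5108, 1042 and 5705 called genes for Reloading against Unloading, Unloading against Control and Reloading against Control, and by those in the descriptions 4902, 1479 and 6632. With either replicate block the called genes among the 8 numbered 6, 2 and 6. Between Reloading and Control Lcn2 was higher by 1.03 ± 0.40 (adjusted p = 0.0455, edgeR), a call kept in 6 of 18 alternative settings. In that comparison the block by titles ended the calls of Lcn2 (1, adjusted p = 0.104 in edgeR), Ptpn6 (0.59, 0.0883) and Icam1 (0.72, 0.054). The block by descriptions ended the call of Lcn2 (1.11, adjusted p = 0.051 in edgeR) and of no other gene named in the text. The inhibitors between Reloading and Unloading became 3 higher and 7 lower with it. Depth limits Il6 and Lif most, at 0 to 9 counts a library.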
